A study of Acyrthosiphon pisum with 15 samples.

Results

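In whole-body RNA of the pea aphid, Acyrthosiphon pisum, 150 gene models of 20657 were chosen because they stayed highly counted in every form of the adult insect. Gene models were ranked by their lowest normalised count over all 15 libraries, and the 150 with the largest such minimum were taken. The values compared below are therefore the values that chose the members, and their levels are given as description. The choice did not use the morph labels, but it fixed how low a member could fall in any library. The minimum was 155181 for the first member, ACYPI008050-RA, and 10780 for the last, ACYPI010011-RA. Just inside stood ACYPI000046-RA at 10875 and ACYPI007021-RA at 10806, and just outside ACYPI000062-RA at 10777, ACYPI007023-RA at 10712 and ACYPI008743-RA at 10693. The boundary thus lies in a smooth run of values. Counts were not scaled for gene length, so the ranking favours long gene models and gives no order of abundance per length.

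The study sampled adults of 5 morphs in each of 3 clones, F1, I18 and BK11, with 30 animals in each library and the clones as the replicates (n = 3 per morph). Winged and wingless asexual females were reared at 18 °C with days of 16 h light and 8 h dark, and were 2 days old. Sexual females, and winged and wingless males, were reared at 15 °C with days of 13 h light and 11 h dark, and collected at 2 days as males and at 2 to 6 days as sexual females. Rearing cannot be told apart from morph where asexual females meet the others, nor can age where sexual females meet any other morph. The labels name no genetic change or treatment beyond these, and the spread within a morph mixes clone with preparation. No marker of a tissue or morph could be looked up among the identifiers, so the labels could not be checked against marker genes.

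Asexual pea aphid females give birth to live young and carry developing embryos, sexual females carry yolk-rich eggs, and males carry testes, so a whole-body library mixes very different tissues in the 5 morphs. The most abundant messenger RNAs of an animal body commonly encode parts of the ribosome, the cytoskeleton and muscle, and the enzymes that supply energy. Which of these the members encode is not given by the identifiers: 1 member, ACYPI23643-RA, was found in the gene table used here, and it carries no gene symbol there. No name or role is given to a member below. The identifiers show 1 feature that the ranking did not use. The members' numbers have 6 digits starting with 00 or 01 in 143 cases, or 95.33%, against 41.95% of all 20657 gene models and 90.67% of the 150 gene models ranked next.

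The members held a larger share of the normalised counts in asexual females than in the other morphs. In winged asexual females the share was 28.31% in clone F1, 27.64% in I18 and 27.13% in BK11. In wingless asexual females it was 28.80%, 29.72% and 29.74% in the same clones. Sexual females stood at 14.30%, 17.09% and 16.31%. Winged males had 15.90%, 18.07% and 16.63%, and wingless males had 17.81%, 17.56% and 18.43%. All 6 asexual libraries lay above all 9 others. The asexual females averaged 28.6% ± 1.07 (SD over 6 libraries) and the others 16.9% ± 1.28 (SD over 9 libraries). These SDs mix morph with clone and are no spread over replicates. The 150 gene models ranked next also held more of the asexual libraries, with means of 10.6% in winged and 11.7% in wingless asexual females. They held 6.34% of sexual female, 9.05% of winged male and 8.98% of wingless male libraries. In bulk samples such as these, fewer cells of a type and less RNA per cell cannot be told apart.

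A share depends on what else is in the library, so the sums were set beside it. The members' normalised counts summed to 10604601 ± 558891 (SD, n = 3) for winged and 18314808 ± 1248083 for wingless asexual females. The sums were 7545465 ± 550890 for sexual females, 6969508 ± 842364 for winged and 7522105 ± 522737 for wingless males. The sum over all other gene models averaged 27708425, 43992635, 39975332, 34254200 and 34392027 in the same order. Winged asexual females thus combined a larger sum over the members than sexual females or males with the smallest sum over the other gene models. In wingless asexual females both sums were the largest of the 5 morphs.

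The size of the difference in share depended on how the 150 were chosen. Ranked by the median, the 150 gene models at the top held 32.8% of asexual female libraries and 23.8% of the others, and ranked by the mean 32.5% and 29.4%. Asexual females were higher under each ranking. Each library's own 150 most counted gene models held on average 34.6% of winged asexual, 39.9% of wingless asexual and 30.8% of sexual female libraries, and 39.6% of winged and 38.1% of wingless male libraries. The members made up a mean of 91.3, 84.0 and 86.7 of those 150 in the 3 female morphs, in that order, while winged males had 39 to 46 and wingless males 48 to 54 in a library. The F1 winged asexual female had the most, 92. The male libraries were on average more concentrated in their own 150 than those of winged asexual and sexual females, but fewer of these gene models were members. Of the 150 gene models with the largest mean, 84 were members, and the 66 that were not had a median minimum of 3715 and a median maximum of 246045.

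A choice made within each morph shows how far the morphs shared the gene models at the top. When the 150 gene models with the largest minimum were taken over the 3 libraries of each morph, 338 entered at least 1 of the 5 lists and 18 entered all 5. All 18 were members, as they had to be: a gene model on every list is also among the 150 with the largest minimum over all libraries. Gene models on the list of 1 morph and of no other numbered 11 for winged asexual, 10 for wingless asexual and 39 for sexual females. For winged and wingless males they numbered 29 and 16. The lists of winged asexual, wingless asexual and sexual females held 93, 92 and 89 members, and those of winged and wingless males 52 and 62. The order of the members by level was also alike in some pairs of morphs and not in others. Spearman's rho over the 150 morph means was 0.897 between winged and wingless males, 0.875 between winged and wingless asexual females and 0.770 between winged asexual and sexual females. It was 0.0342 between sexual females and winged males and −0.107 between wingless asexual females and winged males. These coefficients describe members that share libraries and were chosen together, and no test was made of them.

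The choice held up in libraries it had not used in most cases. Chosen without the 5 libraries of clone I18, 142 of the 150 were also members, and 128 were among the 150 largest minima of the I18 libraries. Without BK11 the counts were 147 and 123, and without F1 they were 134 and 132. The lowest rank in the left-out libraries was 220 for I18, 321 for BK11 and 2054 for F1. Under equal library totals, in which each library is rescaled to the same sum, 143 of the 150 were members.

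Large count differences remained among morphs within this always abundant set. The ratio of the highest to the lowest morph mean ran from 1.328 to 23.93, with a median of 4.048 and quartiles of 2.370 and 8.781. It was under 2 for 19 members, at least 4 for 76 and at least 8 for 42. Under equal library totals the range was 1.160 to 15.80, the median 3.224, and 63 members had a ratio of at least 4 and 25 of at least 8. The median was 3.438 for the 150 gene models ranked next. The morph with the highest mean was the wingless asexual female for 113 members, and the morph with the lowest was the winged male for 87 and the sexual female for 39. Equal library totals lowered the first count to 60, with 41 members highest in winged asexual females, and left winged males lowest for 82.

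By the limma F test on log2(normalised count + 1), with p-values adjusted over all 20301 gene models tested at a threshold of 0.05, 136 members (90.7%) differed among morphs. The background was 74.5% of all gene models tested, and 139 of the 150 ranked next were called. Every member passed the filter on low values. The residual SD within morphs on the log2 scale had a median of 0.2578 over the members, 0.2683 over the 150 ranked next and 0.7311 over all tested. The smallest number of recovered reads behind any member's value was 7638, for which counting error alone is 1.14%. The members' share of calls was above the background, and their residual spread was below it, so the counts of calls are not set against the background as a result.

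The member counted highest in its lowest library, ACYPI008050-RA, had 542227, 452736 and 469375 normalised counts in winged asexual females of F1, I18 and BK11, and 752418, 645509 and 685498 in wingless ones. Sexual females had 188650, 207954 and 200262, winged males 156310, 156818 and 169024, and wingless males 155181, 161512 and 188275. The 6 asexual female libraries lay above every other library. The order of the asexual morphs depended on the scaling: as a share of the library, the winged ones had 1.43%, 1.25% and 1.15% and the wingless ones 1.12%, 1.13% and 1.09%, the opposite order without overlap. The F test among morphs gave an adjusted p of 2.265e-08 (limma). The means of winged and wingless males, 160717 ± 7198 and 168323 ± 17567 (SD, n = 3), differed by less than the spread of the latter.

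The member with the largest mean, ACYPI073036-RA, was highest in males instead. Its normalised counts were 1079845, 1394735 and 849983 in winged and 1607555, 1041560 and 1828949 in wingless males, in the order F1, I18 and BK11. Winged asexual females had 276057, 264798 and 456401, wingless asexual females 685055, 553715 and 438849, and sexual females 35199, 181873 and 119775. Every male library lay above every female one and every sexual female library below all others, and the 3 sexual females differed widely among themselves. This single gene model took 2.14% to 4.16% of the male libraries and 0.0720% to 0.384% of the sexual female ones. Wingless males exceeded sexual females by 3.99 ± 0.46 (SE) on the log2 scale, with a limma adjusted p of 1.299e-05.

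ACYPI086030-RA had 551600, 668885 and 547987 normalised counts in winged males and 455513, 372201 and 419466 in wingless males. In females it had 28204, 20011 and 77406 in the winged asexual, 108810, 70867 and 93524 in the wingless asexual and 73939, 127538 and 158349 in the sexual morph. ACYPI004796-RA had 508007, 477948 and 556975 in winged males and 575599, 273641 and 504564 in wingless males, with the I18 wingless male the lowest. Its female values were 37909, 29680 and 48085 in winged asexual, 107105, 53581 and 82869 in wingless asexual and 31425, 49983 and 86125 in sexual females. In both gene models every male library lay above every female library. With ACYPI073036-RA they were the 3 members for which males stood above females without overlap, which 12.0% of all gene models tested did. Males lay below females without overlap in 67 members, against 8.79% of all tested, and in 59 under equal library totals, against 6.25%.

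The 10 members with the largest mean together held 6.91% ± 0.432 (SD, n = 3) of winged and 7.31% ± 1.15 of wingless male libraries. They held 5.24% ± 0.140 of winged asexual, 5.83% ± 0.398 of wingless asexual and 2.72% ± 0.386 of sexual female libraries. The other 140 members held 22.5%, 23.6% and 13.2% of the 3 female morphs in that order and 9.96% and 10.6% of winged and wingless males. The larger share of the 150 in asexual females than in males therefore came from those 140.

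**Figure D1:**
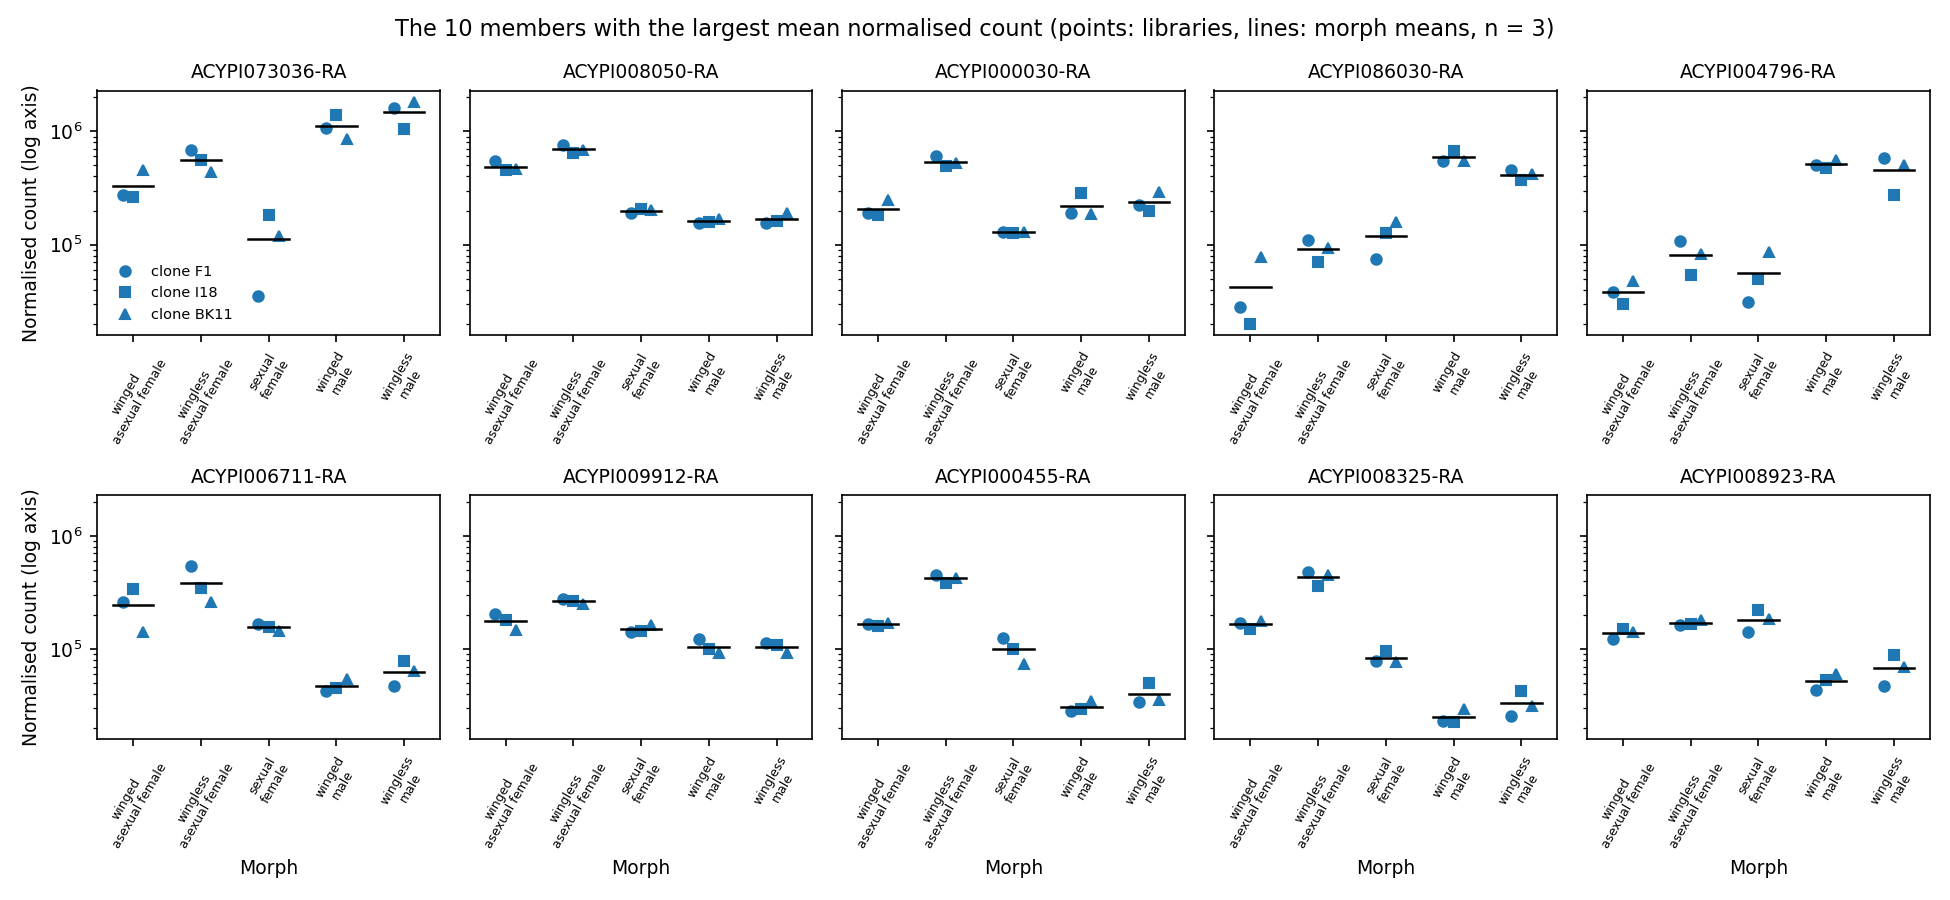
Normalised counts (log axis) of the 10 members with the largest mean in each of the 15 libraries, by morph; points are clones and lines morph means (n = 3). ACYPI073036-RA, ACYPI086030-RA and ACYPI004796-RA are higher in all 6 male than in all 9 female libraries, and ACYPI008050-RA is higher in all 6 asexual female libraries than in the other 9.

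A group of members varied together. ACYPI000085-RA had the largest F among morphs of all members, 187.5. It had 251793, 227106 and 253823 normalised counts in wingless asexual females, 136390, 124908 and 122081 in winged asexual females and 65330, 56197 and 49092 in sexual females. Winged males had 13131, 13224 and 16867, and wingless males 14752, 24211 and 16319. The wingless asexual, winged asexual and sexual females and the males fell into 4 ranges with no overlap, while winged and wingless males overlapped. The members most like it over the 15 libraries, by Pearson's r of the log2 values, were ACYPI000930-RA at 0.997, ACYPI009132-RA at 0.996 and ACYPI000819-RA at 0.996.

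In all, 63 members reached an r of at least 0.9 with ACYPI000085-RA, itself included, and 50 of them at least 0.95. The group was formed after the values were seen and gets no test. The lowest r inside it was 0.9017 and the highest outside it 0.8699. Its share of the library was 17.5% ± 1.19 (SD, n = 3) in winged asexual, 19.5% ± 0.553 in wingless asexual and 8.24% ± 0.739 in sexual females, and 3.39% ± 0.460 in winged and 4.21% ± 1.05 in wingless males. The other 87 members held 10.2% ± 0.679, 9.96% ± 0.0523, 7.66% ± 1.17, 13.5% ± 1.40 and 13.7% ± 1.38 in the same order. In these values the excess of the 150 in asexual females over males lay in the 63, and the 87 held more of the male libraries. This and the profile given next follow in part from how the group was formed, by likeness to a member high in asexual females and low in males. The 63 were highest in wingless asexual females in 59 cases and lowest in winged males in 61, and their median ratio of morph means was 9.842 against 2.506 for the 87. Of the 87, 39 were lowest in sexual females and 26 in winged males.

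**Figure D2:**
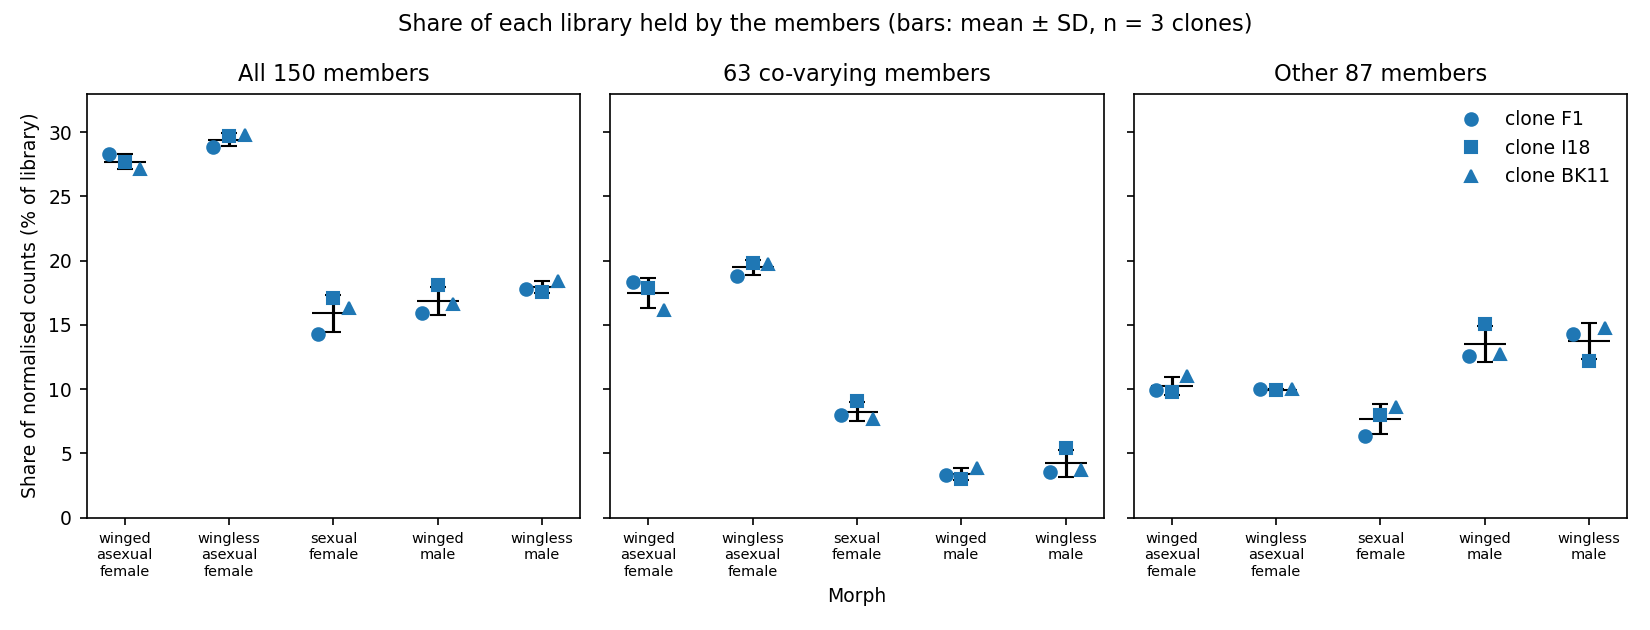
Share of each library's normalised counts (percent) held by the 150 members, by the 63 that varied together and by the other 87, in each morph; points are clones, and bars are the mean ± SD of 3 clones. Asexual females lie between 27.1% and 29.7% over the 150 and the other 9 libraries between 14.3% and 18.4%. Over the 63, asexual females are highest and sexual females, with a mean of 8.24%, lie between them and the males. Over the 87, males are highest and sexual females, with a mean of 7.66%, are lowest.

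**Figure D3:**
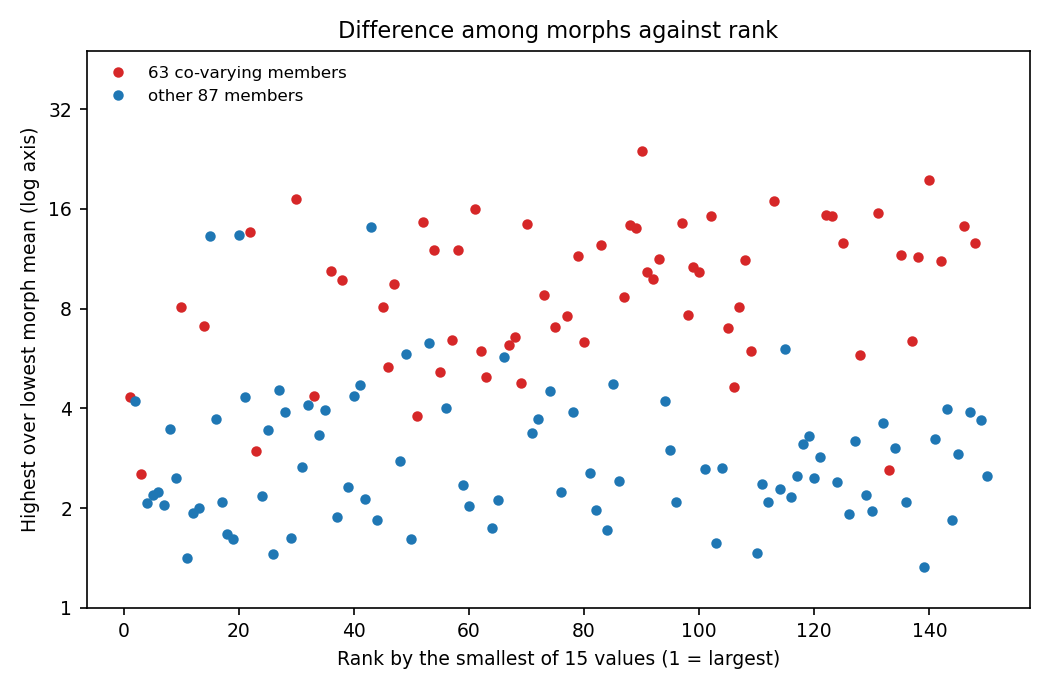
Ratio of the highest to the lowest morph mean of each member (log axis) against its rank by the minimum; each point is 1 member, red for the 63 that varied together and blue for the other 87. The 63 lie between 2.537 and 23.93 with a median of 9.842, and the median of the other 87 is 2.506; both occur along the whole ranking.

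The I18 wingless male library stood apart from the other males over these 63 members. Their mean log2 value relative to the mean of all libraries was −0.741 in that library, against −1.41 and −1.24 in the F1 and BK11 wingless males and −1.58, −1.58 and −1.29 in the winged males of F1, I18 and BK11. It had the highest of the 6 male values in 56 of the 63, and in 18 of the other 87. In sexual females the same measure was 0.0967, 0.236 and −0.0458, so the library lay between the other males and the sexual females. Leaving out this library alone moved none of the counts of members called by adjusted p given below by more than 1.5 times. For wings in males, where no member was called, the count at an unadjusted p under 0.05 fell from 23 to 1 without it.

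**Figure D4:**
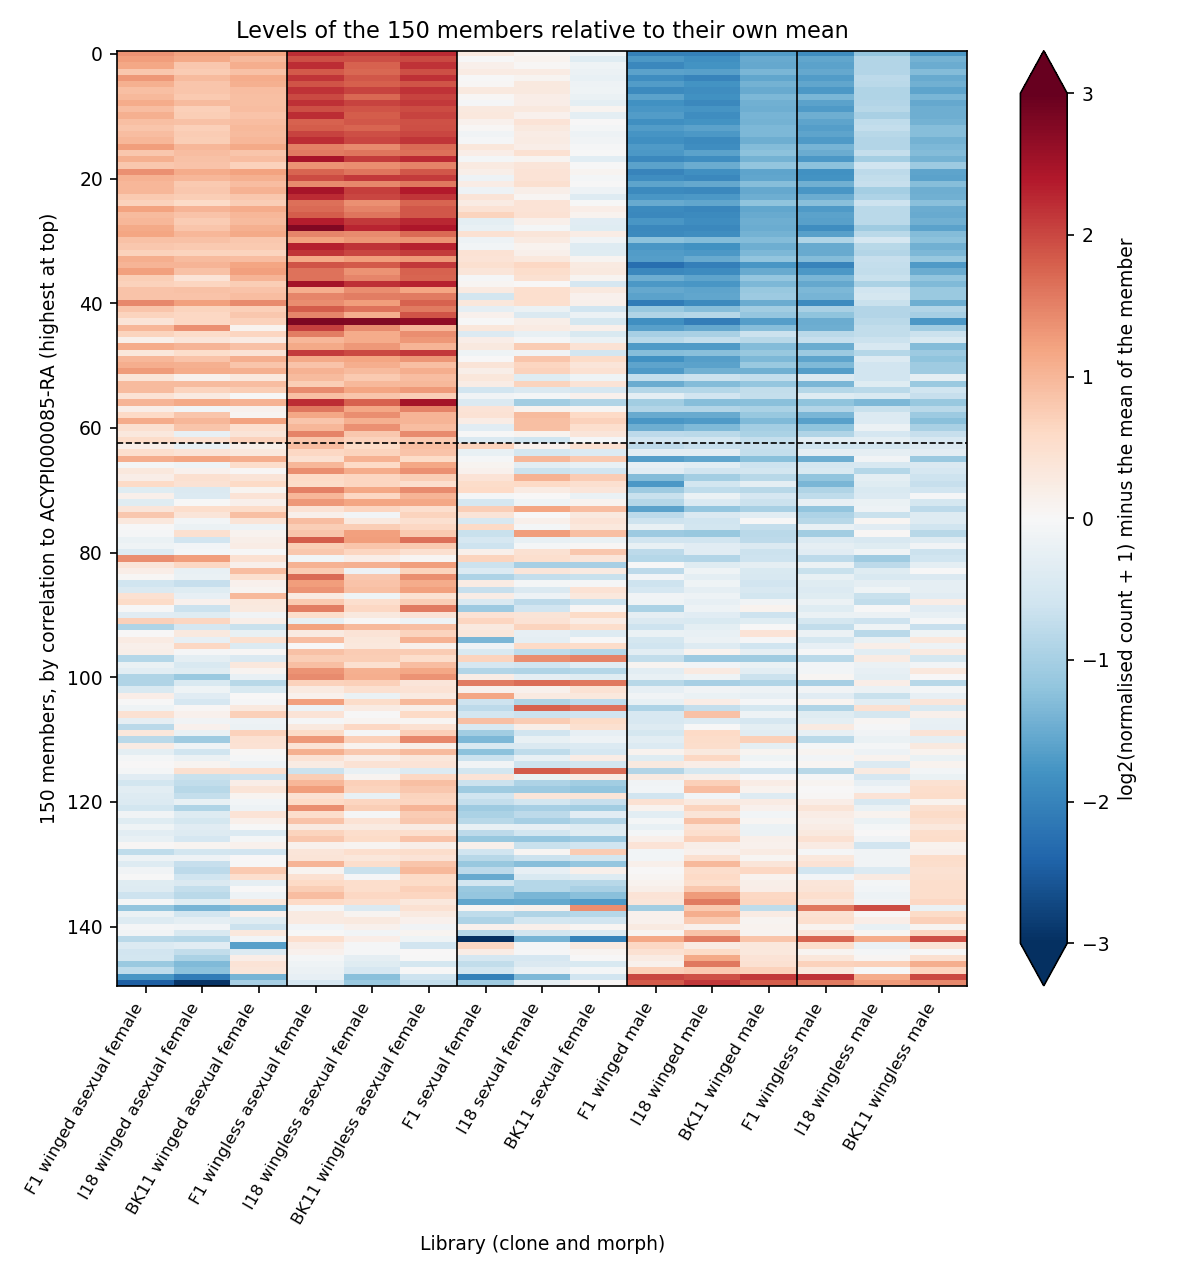
Log2(normalised count + 1) of the 150 members minus each member's mean, in the 15 libraries grouped by morph; rows are members, sorted by their r with ACYPI000085-RA, red is above and blue below the member's mean, and the dashed line closes the group of 63. Rows above the line run from red in wingless asexual females to blue in males, and the I18 wingless male column is paler there than the other males.

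Between sexual and wingless asexual females, 105 members were lower and 4 higher in sexual females by limma at an adjusted p threshold of 0.05, where 22.3% and 25.6% of all gene models tested were called. The members' median log2 difference was −1.16 against 0.00321 over all tested and −0.907 over the 150 ranked next. ACYPI085471-RA had 26356, 17329 and 19238 normalised counts in sexual and 166548, 121478 and 200429 in wingless asexual females, a log2 change of −2.95 ± 0.19 (SE) with a limma adjusted p of 1.276e-07. The groups lay far apart in all 3 clones. ACYPI004809-RA went the other way, with 96588, 104567 and 98009 in sexual against 53403, 53530 and 41918 in wingless asexual females, a log2 change of 1.02 ± 0.25 (limma adjusted p 0.004031). ACYPI000474-RA was also called higher, at 1.41 ± 0.48 (limma adjusted p 0.02695), but its sexual female values were 29562, 154712 and 137841, and the first of these lay inside the wingless asexual range of 27709 to 37071. Its call was lost in 9 of 31 alternatives. The members called higher were 2 without the F1 or the BK11 wingless asexual female, and 11 under equal library totals.

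The comparison of wingless males with sexual females uses the same sexual female libraries. Wingless males were lower in 79 members and higher in 28, against 26.8% and 32.0% of all tested. The median difference was −0.63 over the members and 0.53 over all tested. Earlier work on these data had doubted 4 libraries: the I18 and BK11 wingless males, the BK11 winged male and the BK11 sexual female. The labels give no ground for the doubt, and it was not tested here. Without these 4 libraries 18 members were called higher. Without clone F1 there were 17. ACYPI004809-RA had 16434, 37758 and 18403 normalised counts in wingless males, all under its sexual female values given above, a log2 change of −2.15 ± 0.25 (limma adjusted p 1.302e-05). ACYPI008181-RA had 14870, 35545 and 18019 in wingless males and 82116, 90394 and 70754 in sexual females, a log2 change of −1.93 ± 0.25 (limma adjusted p 2.938e-05). In each of these the I18 wingless male was the highest of the 3 wingless males. Upward, the largest changes were those of ACYPI073036-RA and of ACYPI004796-RA, which rose by 3.07 ± 0.36 (limma adjusted p 1.414e-05).

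Wingless males compared with wingless asexual females gave 106 members lower and 4 higher, against 20.3% and 27.1% of all tested. The median difference was −1.37 over the members and 0.32 over all tested. The widest was ACYPI081215-RA, with 21882, 35466 and 18664 normalised counts in wingless males and 426917, 420484 and 386893 in wingless asexual females, a log2 change of −4.08 ± 0.23 (limma adjusted p 4.229e-08). Its ratio of morph means, 23.93, was also the largest of the members. ACYPI000383-RA had 12126, 21065 and 14369 against 300142, 214795 and 237125, a log2 change of −4.01 ± 0.21 (limma adjusted p 3.508e-08). In both gene models the groups did not overlap. The 4 members called higher became 2 without the I18 or BK11 wingless asexual female or the F1 wingless male, and 16 under equal library totals. ACYPI086030-RA and ACYPI004796-RA rose by 2.21 ± 0.39 and 2.46 ± 0.36 in this comparison, with limma adjusted p of 4.214e-04 and 8.911e-05.

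Winged males compared with winged asexual females gave 77 members lower and 20 higher, against 19.2% and 21.8% of all tested. The median difference was −0.76 over the members and 0.23 over all tested. The count of members higher was 12 under trimmed mean (TMM) scaling and 7 with edgeR on the recovered reads, and from 5 to 25 when single libraries or clones were left out. It was 9 without the I18 winged male, 11 without the I18 winged asexual female, and 5 and 7 without clones F1 and I18. ACYPI003298-RA had 14569, 16698 and 22237 normalised counts in winged males and 170297, 147177 and 168020 in winged asexual females, a log2 change of −3.20 ± 0.26 (limma adjusted p 9.122e-07). ACYPI000085-RA fell by 3.16 ± 0.18 on the log2 scale (limma adjusted p 1.888e-07). ACYPI086030-RA and ACYPI004796-RA rose by 4.06 ± 0.39 and 3.76 ± 0.36, with limma adjusted p of 4.288e-06 and 3.971e-06.

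**Figure D5:**
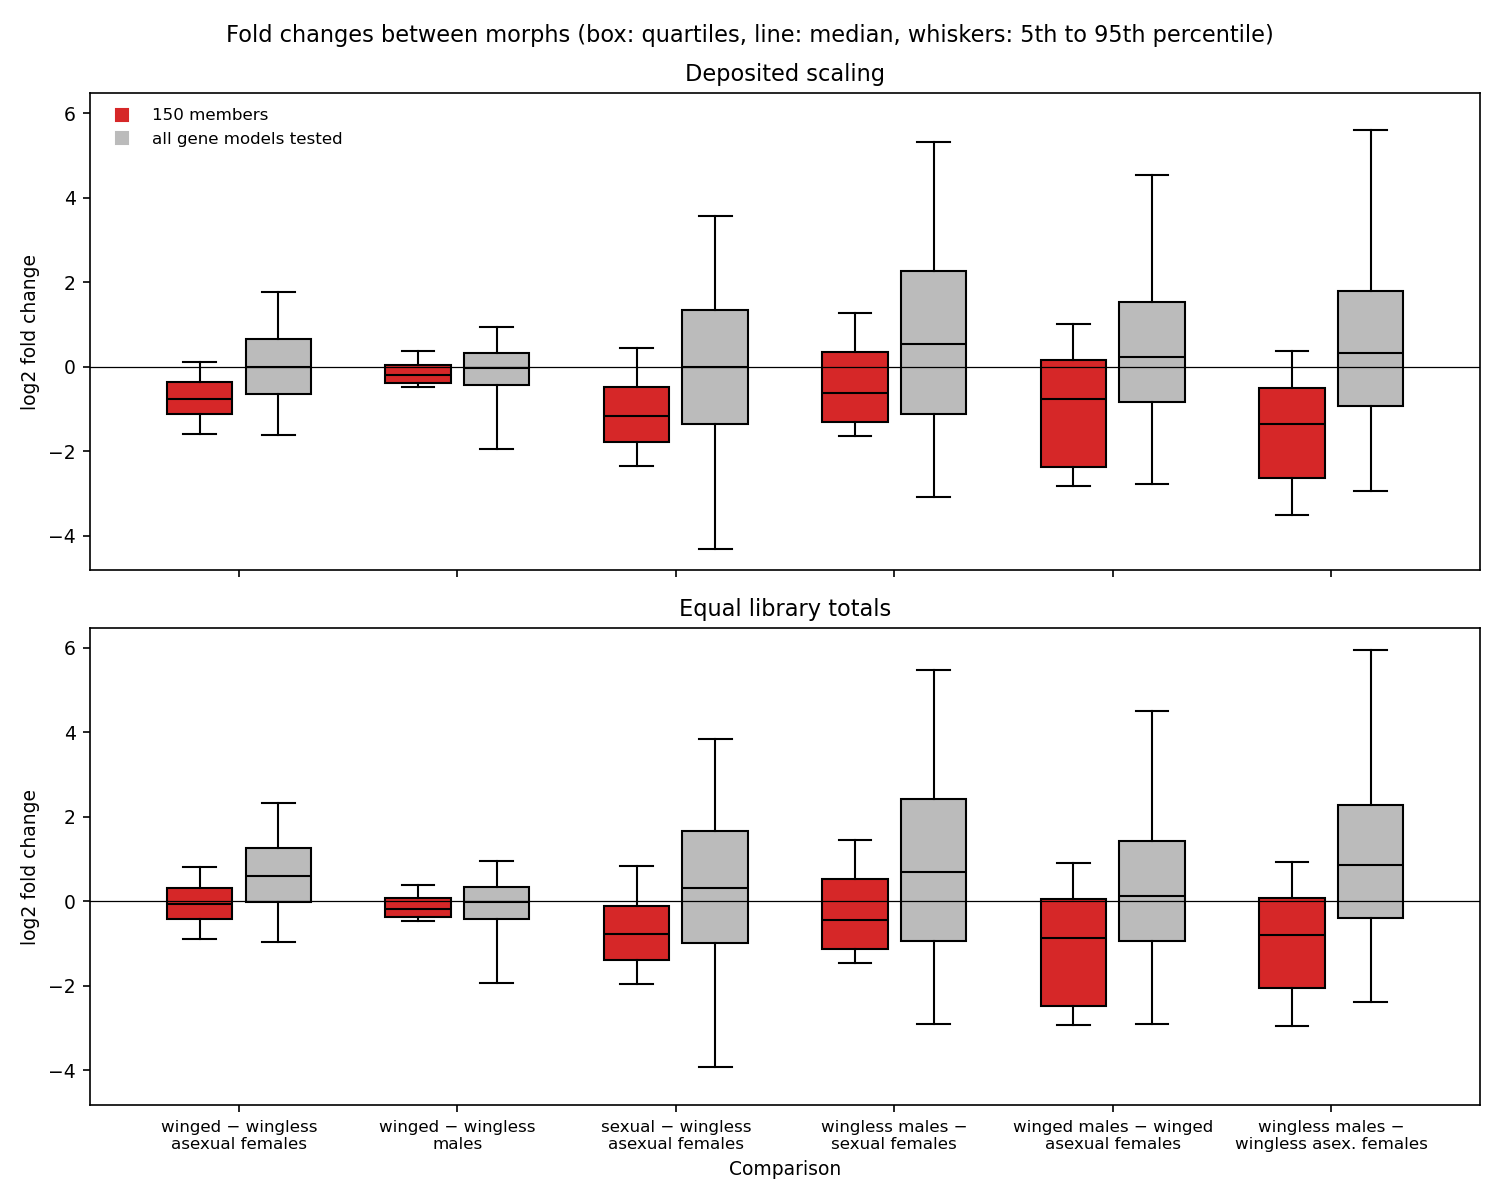
Log2 fold changes in 6 comparisons of morphs, with the deposited scaling above and equal library totals below; red boxes are the 150 members and grey boxes all gene models tested, with quartiles, the median and whiskers from the 5th to the 95th percentile. The members' median lies below that of all gene models in each comparison under both scalings. With the deposited scaling the difference runs from −1.69 for wingless males against wingless asexual females to −0.178 for winged against wingless males. The median of the gene models ranked next, not drawn, also lies below that of all gene models in each.

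Wings in asexual females gave the comparison, among the 6 of morph pairs, whose counts depended most on the scaling. Winged asexual females were lower than wingless ones in 84 members and higher in 2, against 6.82% and 4.54% of all tested. Under equal library totals 18 were lower and 12 higher, against 1.85% and 17.5%. That scaling moved the median log2 difference of all gene models from 0 to 0.60 and that of the members from −0.77 to −0.07, so the members' median minus that of all gene models was −0.769 with the deposited scaling and −0.670 with equal totals. Relative to the other gene models the members were lower in winged females under both. This was not particular to the members. The gene models ranked next had a median of −0.674 with the deposited scaling and 0.0263 with equal totals, also below all gene models. With the deposited scaling 69 of them were called lower and 2 higher. The members' own median was negative under both, but under equal library totals 67 members had a positive and 83 a negative difference. With TMM scaling the median was −0.635, with 75 members called lower and 2 higher. The 84 called lower with the deposited scaling became 52 with edgeR, 9 without clone F1 and 24 without clone BK11. At an unadjusted p under 0.05, 100 members were lower by limma. That count was 83 with edgeR, 84 without clone F1 and 87 without clone BK11. The members' median log2 difference stayed between −0.812 and −0.755 when 1 clone was left out.

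ACYPI081215-RA had 81055, 94943 and 99601 normalised counts in winged against the wingless asexual values given above, a log2 change of −2.17 ± 0.23 (limma adjusted p 3.028e-04). ACYPI008657-RA had 24654, 21355 and 39034 in winged and 122779, 97259 and 115892 in wingless asexual females, a log2 change of −2.02 ± 0.23 (limma adjusted p 3.524e-04). In both the 3 winged libraries lay below the 3 wingless ones. ACYPI006679-RA and ACYPI000016-RA were the 2 members called higher. The former had 190416, 174773 and 99027 in winged and 68279, 83815 and 75792 in wingless asexual females, a log2 change of 0.98 ± 0.22 (limma adjusted p 0.01136), and the latter changed by 0.63 ± 0.18 (limma adjusted p 0.04068). Their calls were lost in 6 and 13 of 31 alternatives.

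Wings in males gave no member called higher or lower by limma, against 0.172% and 0.177% of all tested. At an unadjusted p under 0.05 there were 23 members by limma, 8 by edgeR and 20 by DESeq2. The limma count fell to 1 without the I18 wingless male, 5 without the F1 and 8 without the I18 winged male, 9 without clone F1 or I18, 10 under equal library totals and 2 with the male libraries alone. It was 34 without the BK11 winged male, 53 without the F1 wingless male and 1 without the 4 doubted libraries. After adjustment edgeR called 0 and DESeq2 1, as higher. The members' median log2 difference, winged minus wingless males, was −0.208, against −0.0306 over all tested.

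The wing difference itself was compared between males and asexual females in 1 term. It was more positive in males in 17 members (11.3%) and more negative in 0, against 1.28% and 0.591% of all tested. The gene models ranked next gave 20 (13.3%) and 0, so the excess over all tested was not particular to the members. Their median difference of the term was 0.624, against 0.589 for the members. By unadjusted p under 0.05 the counts of members were 73 and 3, and 21 and 24 under equal library totals. Under equal library totals 4 members were called in the first direction and 5 in the second, against 0.330% and 4.81%, and the median difference of the term over the members went from 0.59 to −0.09 while that over all gene models went from −0.07 to −0.69. With edgeR 2 members were called in the first direction and with DESeq2 37, and in the second direction each called 0. Without the 4 doubted libraries, and without each of the 3 clones in turn, 0 were called by limma, with 72, 40, 66 and 52 members positive at an unadjusted p under 0.05 without those 4, F1, I18 and BK11. Leaving out single libraries gave 2 to 28, with 28 without the BK11 winged asexual female, 27 without the F1 sexual female, 9 and 7 without the F1 wingless and winged males, 5 without the BK11 winged male, 3 without the I18 winged asexual female, and 2 without the F1 winged asexual, F1 or BK11 wingless asexual females or the I18 winged male.

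The comparisons above share libraries, so their counts are not separate evidence. Wingless asexual females entered 3 of them. In 78 members the 3 wingless asexual libraries lay above the other 12, against 6.73% of all gene models tested, and under equal library totals in 35, against 2.73%. In 55 the 6 asexual libraries lay above the other 9, against 4.92%, and in 59 under equal totals, against 5.06%. Sexual females lay below the other 12 libraries in 19 members and above in 3, against 11.5% and 16.3%. Under equal totals these counts were 29 and 4, against 11.7% and 14.7%.

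Few members kept a nearly even level. ACYPI008293-RA had the smallest ratio of morph means, 1.328, with values from 11503 in the BK11 winged asexual female to 21889 in the F1 winged male and an adjusted p among morphs of 0.1893 (limma F test). Under equal library totals its ratio was 1.708 and it was called among morphs, with an adjusted p of 0.0250 (limma F test). ACYPI005806-RA followed at 1.413, with values from 40941 in the F1 sexual female to 99212 in the I18 winged male, and ACYPI000053-RA at 1.456, with values from 23862 to 42307. Their adjusted p were 0.3182 and 0.06111 (limma F test). The latter was called in 6 of 30 alternatives, with an adjusted p of 0.00823 under equal library totals, 0.0342 under TMM scaling, 0.0129 and 0.0368 without the I18 winged or wingless male and 0.0266 without clone I18. In all, 14 members were not called among morphs, and a p above the threshold does not show that their levels were equal. Pairs of members could be steadier than any single one: the ratio of ACYPI000455-RA to ACYPI000046-RA stayed between 2.47 and 2.94 over the 15 libraries, and that of ACYPI010200-RA to ACYPI009454-RA between 0.935 and 1.11. These pairs were picked as the steadiest after the values were seen, and reads shared between gene models were not tested.

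Few members were called among clones, but the choice bears on this count. It demanded a high minimum over every library, which kept out gene models low in any clone. The gap between the members and all gene models is therefore not read as a result. In a limma fit with morph and clone, 7.05% of all gene models tested and 1 of the gene models ranked next were called among clones. Of the members, 1 was called and 18 had an unadjusted p under 0.05. The latter count was 35 without the I18 winged male, 10 without the I18 sexual or wingless asexual female, 11 without the F1 sexual female, 12 without the F1 wingless male or the 4 doubted libraries, and 6 without clone F1. ACYPI010135-RA had 22495, 14008 and 41299 normalised counts in winged asexual females of F1, I18 and BK11, 25411, 15156 and 47756 in wingless asexual females and 13926, 20443 and 26766 in sexual females. It had 24418, 34601 and 37225 in winged and 16023, 18078 and 33354 in wingless males. BK11 was the highest clone in each of the 5 morphs, with a mean of 37280 ± 7935 (SD over the 5 morphs) against 20455 ± 5165 in F1 and 20457 ± 8298 in I18, and a limma adjusted p of 0.02941. It was lost without any 1 of 7 libraries: the winged male, wingless male and sexual female of F1, and the wingless male and the 3 female morphs of BK11. In all, the call was lost in 11 of 28 alternatives, edgeR among them, which called 0 members with 7 at an unadjusted p under 0.05. Next came ACYPI000474-RA, with an adjusted p of 0.0766 (limma).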

How the data were processed

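The authors deposited a signal for 20657 gene models in 15 libraries: counts scaled by library size factors. The submitters' processing notes name DESeq2. Aligner, counter, strand setting, genome build and annotation: not given in the sources used here. Dividing by the value of 1 read gave whole numbers, to within 0.001, for 100% of values. Reads recovered in this way ran from 28721904 to 75066116 per library. More deeply sequenced libraries have smaller counting error.

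Tests used limma 3.58.1 in R 4.3.3 on log2(value + 1) with a mean-dependent prior variance, on 20301 gene models with at least 10 normalised counts in at least 3 libraries. The 5 morph means were fitted over all 15 libraries, leaving 10 residual degrees of freedom. Benjamini-Hochberg adjustment ran over all gene models, with a threshold of 0.05. Fold changes keep the pseudocount of 1. The fit was tested on simulated data. Recovered reads were also tested with edgeR 4.0.16 and DESeq2 1.42.0, by which 52 and 83 members were lower in winged than in wingless asexual females. Other alternatives were pseudocounts of 0.5 and 8, no filter or 50, TMM scaling, equal library totals, robust prior variances, only the groups compared, and fewer libraries or clones.

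The members, comparisons and alternatives were chosen with earlier results of these data known. Clone as a block together with equal library totals was added after seeing the data. Named were the 10 members with the largest mean and, per comparison, the 2 called members with the largest change in each direction and the same sign in all 3 clones. Added were the 3 with the largest F, the 3 with the smallest ratio of morph means, the 2 with the smallest p among clones, and the 1 member among the 61 identifiers that a gene table of assembly pea_aphid_22Mar2018_4r6ur_v2 holds. Each clone gave a library to every morph, so clone pairs the libraries. Deviations from the morph mean correlated over gene models with r from 0.1345 to 0.6415 in the 30 pairs of 1 clone and from −0.4803 to 0.1083 in the 60 others.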

Additional observations from a re-analysis of the deposited data

Results flagged for a closer look

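In 5 of the named members the wing difference, winged minus wingless on the log2 scale, was more positive in males than in asexual females by limma at an adjusted p threshold of 0.05. The differences were 1.27 ± 0.264 (SE, adjusted p 0.0323) for ACYPI000030-RA, 1.65 ± 0.326 (0.0280) for ACYPI081215-RA, 1.77 ± 0.328 (0.0237) for ACYPI008657-RA, 1.43 ± 0.196 (0.00830) for ACYPI009532-RA and 1.75 ± 0.344 (0.0280) for ACYPI23643-RA. In each, winged asexual females lay below wingless ones, and no wing difference was called in males. In ACYPI009532-RA, winged and wingless asexual females had 64013, 72795 and 68894 against 216262, 201839 and 219522 normalised counts, and winged and wingless males 21017, 21410 and 23122 against 23812, 27870 and 23836. Under equal library totals the 5 differences were 0.599, 0.978, 1.10, 0.756 and 1.07, with adjusted p of 0.103, 0.114, 0.0397, 0.0514 and 0.0494 (limma). The calls were lost in 18, 15, 11, 6 and 12 of 31 alternatives, with adjusted p over them from 7.40e-04 to 0.361 for ACYPI008657-RA and from 1.37e-08 to 0.301 for ACYPI009532-RA. Groups of 3 libraries are too small for an outlier check.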

How the results depend on the processing

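Of the 35 named values with a call, 30 kept it under every alternative. Many of these were named for the largest changes, so this count does not describe the other members. The cause of the shifts below was not tested. Gene length, tissue make-up, rearing and age limit every comparison. Equal library totals gave 12 members higher and 18 lower for wings in asexual females, 11 higher for sexual against wingless asexual females and 16 higher for wingless males against wingless asexual females. For the wing difference in males minus that in asexual females they gave 4 higher and 5 lower, with the median turned to −0.0863. The fit of only the groups compared gave 0 higher for wings in asexual females. TMM scaling gave 2 higher for sexual against wingless asexual females and 12 for winged males against winged asexual females. With edgeR these were 52 lower for wings in asexual females, 7 higher for winged males against winged asexual females, 2 higher for the wing term and 0 among clones. DESeq2 gave 1 higher for wings in males and 37 for the wing term. Without the 4 doubted libraries 18 were higher for wingless males against sexual females, 2 for wingless males against wingless asexual females, 0 for the wing term and 0 among clones, the last with 12 at an unadjusted p under 0.05.

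With clone as a replicate block, the counts higher and lower were 1 and 85 for wings in asexual females, 5 and 107 for sexual against wingless asexual females, 29 and 83 for wingless males against sexual females, 20 and 82 for winged males against winged asexual females, 4 and 108 for wingless males against wingless asexual females, and 19 and 0 for the wing term, with 139 among morphs. The block with equal library totals gave 18 and 21 for wings in asexual females, 14 higher for sexual against wingless asexual females, 16 higher for wingless males against wingless asexual females, and 4 and 11 for the wing term with a median of −0.0863.

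Leaving out single libraries or clones gave 0 to 2 higher and 9 to 89 lower for wings in asexual females (24 lower without clone BK11), 2 to 5 and 90 to 109 for sexual against wingless asexual females, 17 to 31 and 69 to 80 for wingless males against sexual females, 5 to 25 and 70 to 81 for winged males against winged asexual females, and 2 to 5 and 93 to 109 for wingless males against wingless asexual females. The wing term gave 0 to 28 and 0 to 1, morphs 119 to 140, and clones 0 to 3. The share in asexual females against the others was 22.1% and 14.0% with 100 members, 33.9% and 19.4% with 200, 39.7% and 25.0% with 300, 32.5% and 29.4% ranked by the mean, and 32.8% and 23.8% ranked by the median. Chosen without 1 clone, the share was 28.3% to 28.5% in asexual females and 16.9% to 21.0% in the others, 21.0% without F1.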
